A study of Mus musculus with 8 samples.

Results

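Kinesins are motor proteins that walk along microtubules, and the transcripts of 40 kinesin genes were measured in whole testes of Ing2-/- and Ing2+/+ mice. Members were chosen by name: every probe set annotated to exactly 1 symbol made of Kif and a number, together with Kifc2 and Kifc3. This gave 40 of the 19938 genes measured, read by 46 of 35557 probe sets. Kif4-ps, a pseudogene of Kif4, is counted among the 40. Kifc1 and Kifc5b, which the rule also names, share 1 probe set that carries both symbols, and they were not analysed here. Where a gene had several probe sets, as 6 kinesin genes did, the brightest over all arrays stands for it. The Ing2-/- mice (5) lack exon 2 of Ing2 in every tissue from the germ line on, after EIIa-Cre, which is active in the early embryo, had recombined a floxed allele. The Cre transgene was then bred out with C57BL/6J mice. The Ing2+/+ mice (3) carry the wild-type gene, and testes of both genotypes were taken at 2 to 3 months of age. RNA was hybridised to Affymetrix Mouse Gene 1.0 ST arrays, with as many arrays as mice in each genotype. The deposited values are log2 levels after RMA, a method that removes background, gives all arrays the same distribution and combines the probes of a probe set.

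A kinesin moves by hydrolysing ATP in its motor domain, and its tail binds the cargo or the second microtubule. In a testis these motors serve several tasks. Mitotic and meiotic spindles are built and separated by one group, whose members are needed while germ cells divide. Another group carries building blocks along the axoneme of cilia and of the sperm flagellum, or sets the length and beat of these structures. Yet another group moves vesicles, mitochondria and other organelles in most cell types, the somatic Sertoli and Leydig cells included. The opposite direction along the microtubule is served mainly by cytoplasmic dynein with its activator dynactin.

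Most promoters of the spindle motors hold a short element that the choice of members did not use, and the stretches that hold it are printed for that reason. RefSeq (GRCm38.p6) gave a promoter, 250 bases before to 50 after the start, for 31 of the 40 genes. The element is TTTGAA, the cell cycle genes homology region, through which the DREAM and MuvB complexes silence mitotic genes in resting cells. It was searched on both strands. It occurred in 9 of 12 spindle and cytokinesis motors (75.0%), 1 of 9 cilium and flagellum motors (11.1%) and 1 of 7 transport motors (14.3%), against 20.2% of all genes with a promoter. Within 30 bases on either side of the start, a width set after the matches had been seen, it occurred in 7 of the 12 spindle motors (58.3%) and in 3.39% of all genes. The 7 matches follow with the element in capitals (TTCAAA where it lies on the other strand), 30 bases each on the gene's own strand.
Kif4, plus strand, chrX:100626072-100626101: ctctgggatcaaTTTGAAacttggcggtta
Kif11, plus strand, chr19:37376351-37376380: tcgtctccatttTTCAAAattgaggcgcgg
Kif15, plus strand, chr9:122951050-122951079: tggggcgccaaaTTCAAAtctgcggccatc
Kif18b, minus strand, chr11:102925104-102925133: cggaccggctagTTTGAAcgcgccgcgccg
Kif20b, plus strand, chr19:34922353-34922382: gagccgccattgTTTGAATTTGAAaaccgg
Kif22, minus strand, chr7:127042420-127042449: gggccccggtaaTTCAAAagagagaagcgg
Kif23, minus strand, chr9:61946780-61946809: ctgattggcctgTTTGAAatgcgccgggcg
Kif20b holds the element as a direct repeat, and in Kif4 it begins at base 20 after the start. The other 2 spindle motors with a match, Kif14 and Kif2c, have it farther upstream, beginning at bases -228 and -103 counted from the start. Of the other kinesin genes with a promoter, only Kif26b has a match within 30 bases of the start. A match of letters is a description and not evidence that a factor binds there.

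A second element was searched because Kif17 is tied to it in mouse germ cells. Kif17 carries Fhl5 (ACT), a coactivator of the transcription factor CREM, between nucleus and cytoplasm of spermatids, and CREM binds the cAMP response element TGACGTCA. The palindrome occurred in 3 of the 31 promoters (9.68%), those of Kif17, Kif18a and Kif5c, against 2.03% of all genes. In Kif17 it begins at base -86 from the start.
Kif17, plus strand, chr4:138262135-138262202: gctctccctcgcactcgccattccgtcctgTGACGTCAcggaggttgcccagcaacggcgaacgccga
With 3 matches, no share is read from them.

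Ing2 itself was low in every Ing2-/- testis, at 5.06, 5.64, 5.21, 5.29 and 5.25 (log2 level), against 7.43, 7.60 and 7.34 in Ing2+/+ testes (log2 fold change -2.16, SE 0.127, limma adjusted p = 0.000395). Which exons its probes read is not given in the sources used. Across all probe sets an Ing2+/+ array had a mean Pearson r of 0.9949 to 0.9952 with the others of its group, and an Ing2-/- array 0.9899 to 0.9921 except replicate 3, which had 0.9832. Replicate 3 therefore stands apart from the other Ing2-/- arrays, and counts are given with and without it. Germ cell and somatic markers were both seen in the testes: of the marker lists, Nanos2 (spermatogonia) and Emcn (endothelium) alone lay below the median of probe sets without a symbol in both groups. Set against the Ing2+/+ mean, the mean level of 14 Sertoli cell markers was 0.28 to 1.12 higher (log2) in Ing2-/- testes and lay between -0.04 and 0.03 in Ing2+/+ testes, with all 14 changes above 0. For 12 round spermatid markers the ranges were -0.91 to -0.13 in Ing2-/- and -0.01 to 0.01 in Ing2+/+ testes, with all 12 changes below 0. Replicate 3 had both extreme values, and the other Ing2-/- testes lay at 0.28 to 0.53 for Sertoli and -0.32 to -0.13 for round spermatid markers. In whole testis RNA, fewer cells of a type and less RNA per cell cannot be told apart.

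Of the 40 kinesin genes, 2 passed the test, with Kif4 higher and Kif19a lower in Ing2-/- testes. Genes count as called where limma's p, adjusted by Benjamini-Hochberg across every probe set, is under 0.05. The background was 4.98% of all genes (1.97% higher and 3.01% lower), so 2 of 40 is close to it. The measured log2 fold changes, Ing2-/- minus Ing2+/+, were below 0 in 30 kinesin genes and above 0 in 10, from -0.58 to 0.79 with a median of -0.15, beside a median of 0.02 over all genes. Of all 19938 genes, 9120 had a change below 0 and 10818 above, and the sign counts of the groups below are to be set beside these. In 14 kinesin genes every Ing2-/- array lay below every Ing2+/+ array, and in 4 every one lay above. The same held for 14.9% and 16.7% of all genes, so that groups without overlap made up 18 of 40 kinesin genes and 31.6% of all genes. At an unadjusted p under 0.05 limma gave 12 lower and 4 higher kinesin genes, beside 13.5% lower and 16.5% higher of all genes. Replicate 3 was the Ing2-/- array farthest from the Ing2+/+ mean in 28 of the 40 (70.0%), against 55.5% of all genes. Without it the median of the kinesin genes was -0.11, and 8 were called, 2 higher and 6 lower, beside 8.72% higher and 7.76% lower of all genes.

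**Figure D1:**
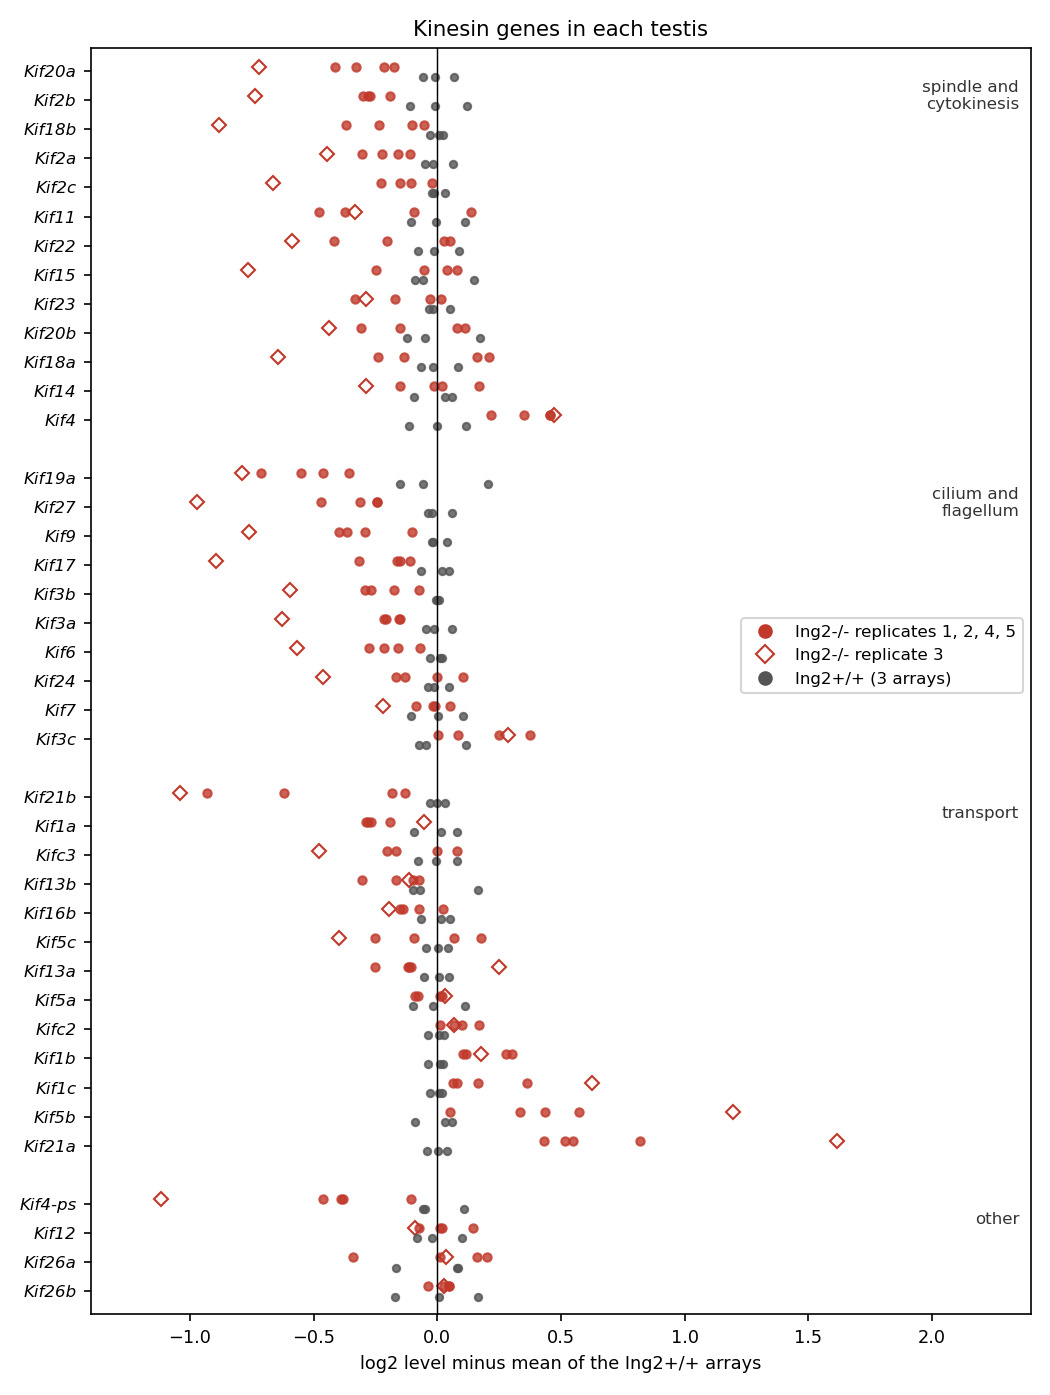
Level of each kinesin gene in each testis, as its distance in log2 units from the Ing2+/+ mean on the horizontal axis and genes down the vertical axis by group. Red marks are the 5 Ing2-/- arrays, with replicate 3 as an open diamond, and grey marks the 3 Ing2+/+ arrays. The diamond is the Ing2-/- array farthest from 0 in 28 of 40 genes, on the low side for most and on the high side for Kif21a, Kif5b, Kif1c and Kif4.

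The cilium and flagellum motors had the lowest median of the groups, -0.28 over 10 genes (-0.18 without replicate 3), with 9 changes below 0 and 1 above. In 7 of the 10 every Ing2-/- array lay below every Ing2+/+ array, and in none did all lie above. The same held for 14.9% and 16.7% of all genes. Of the 10, 1 passed the test and was lower, beside 3.01% of all genes called lower. Kif19a, which shortens microtubules at the tips of cilia and so limits their length, had log2 levels of 6.95, 6.84, 6.52, 6.76 and 6.60 in Ing2-/- testes, against 7.16, 7.25 and 7.51 in Ing2+/+ testes. All 5 Ing2-/- testes were lower than the lowest Ing2+/+ testis, with replicates 3 and 5 lowest. The log2 fold change was -0.57, with a 95% CI of -0.85 to -0.30 (SE 0.120, limma adjusted p = 0.0381). The call was lost when any one of Ing2-/- replicates 2, 4 and 5 or of the Ing2+/+ arrays was left out, with adjusted p-values of 0.0503 to 0.130 and changes of -0.65 to -0.47.

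Kif9, a motor of the axoneme that mouse sperm need for normal swimming, was measured at 10.86, 10.79, 10.39, 11.05 and 10.76 in Ing2-/- testes, against 11.19, 11.13 and 11.14 in Ing2+/+ testes. The groups did not overlap, although Ing2-/- replicate 4 came close to the Ing2+/+ levels. The change of -0.38 did not pass with all arrays (SE 0.129, adjusted p = 0.104) and did without replicate 3, at -0.29 (adjusted p = 0.0465). Kif17 had 10.18, 10.19, 9.45, 10.23 and 10.02 in Ing2-/- testes, against 10.27, 10.36 and 10.39 in Ing2+/+ testes. Here 1 testis, replicate 3, lay far below the rest, and the other 4 lay nearer to the Ing2+/+ range but also under it. The change of Kif17 was -0.33 with all arrays (adjusted p = 0.245) and -0.19 without replicate 3 (adjusted p = 0.115).

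Kif3a and Kif3b are the paired motor subunits of heterotrimeric kinesin-2, which drives intraflagellar transport toward the tip, and mouse sperm cannot build a tail without Kif3a. Kif3a had 9.35, 9.29, 8.87, 9.34 and 9.29 in Ing2-/- testes, against 9.56, 9.49 and 9.45 in Ing2+/+ testes. Every Ing2-/- testis was lower, 4 of them close together and replicate 3 well below. The change was -0.27 (SE 0.113, adjusted p = 0.161). Kif3b had 10.02, 9.90, 9.60, 10.12 and 9.93 in Ing2-/- testes, against 10.19, 10.20 and 10.19 in Ing2+/+ testes. The Ing2+/+ testes were almost equal and all Ing2-/- testes lower, with a change of -0.28 that was not called (adjusted p = 0.140). Kifap3, the non-motor subunit of the same complex, named after its values had been seen, had -0.33 (adjusted p = 0.106). The change of Kif3c, a relative that pairs with Kif3a in neurons, was 0.20, with overlapping groups.

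The remaining members of this group were not called with all arrays. Kif27, a relative of the Hedgehog regulator Kif7 that works in motile cilia, had 10.55, 10.48, 9.82, 10.55 and 10.32 in Ing2-/- testes, against 10.85, 10.75 and 10.77 in Ing2+/+ testes. All Ing2-/- testes were lower and replicate 3 lowest, with a change of -0.45 (adjusted p = 0.117), and of -0.32 without replicate 3, where it was called (adjusted p = 0.0267). Kif6, needed by ependymal cilia in mouse, had 7.97, 7.82, 7.47, 7.88 and 7.76 in Ing2-/- testes, against 8.05, 8.06 and 8.01 in Ing2+/+ testes. Again no Ing2-/- testis reached the Ing2+/+ levels, and the change was -0.26, with -0.48 in its second probe set (adjusted p = 0.0653). Kif24, which restrains cilium formation at the mother centriole, had -0.13 (-0.05 without replicate 3). Kif7 had -0.06 (-0.02 without replicate 3) and its second probe set 0.12, so its measured direction depended on the probe set.

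**Figure D2:**
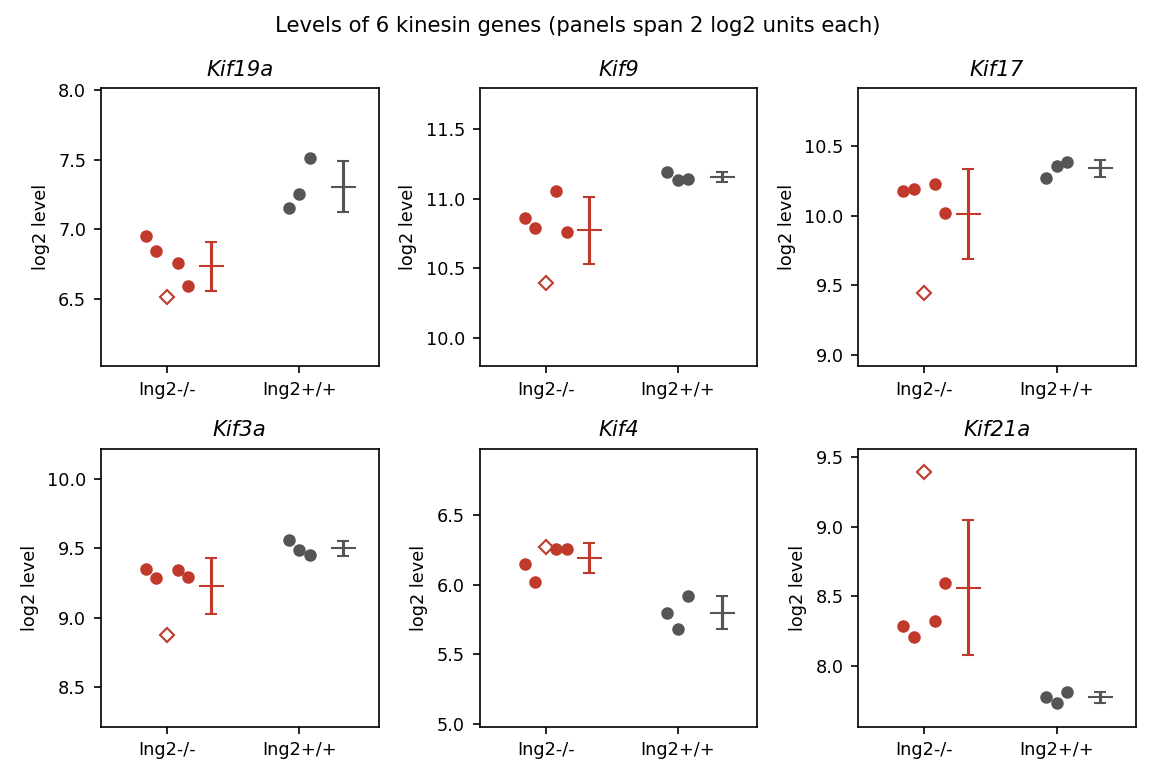
Log2 levels of Kif19a, Kif9, Kif17, Kif3a, Kif4 and Kif21a in each Ing2-/- testis (red, replicate 3 as an open diamond) and each Ing2+/+ testis (grey), with the mean and SD of the group beside the points and vertical axes that each span the same range. Groups do not overlap in any panel, and replicate 3 lies apart in Kif9, Kif17, Kif3a and Kif21a but not in Kif4.

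Among the spindle, chromosome and cytokinesis motors 13 were measured, with 12 changes below 0, 1 above and a median of -0.23. Without replicate 3 the median was -0.13. In 5 of them every Ing2-/- array was below, and in 1 above, every Ing2+/+ array, beside 14.9% and 16.7% of all genes. That 1 was the called gene, beside 4.98% of all genes called. Kif4, a chromokinesin that travels to the spindle midzone and stops microtubule growth there, had 6.15, 6.02, 6.27, 6.25 and 6.25 in Ing2-/- testes, against 5.80, 5.68 and 5.92 in Ing2+/+ testes. All Ing2-/- testes were higher than all Ing2+/+ testes, and replicate 3 did not stand apart. The log2 fold change was 0.39, with a 95% CI of 0.20 to 0.58 (SE 0.0845, limma adjusted p = 0.0410). These are low levels: the median of probe sets without a symbol was 5.55 to 5.62 on the Ing2-/- arrays and 5.47 to 5.51 on the Ing2+/+ arrays. The call was lost when any array but Ing2-/- replicate 2 or 3 was left out (adjusted p = 0.0564 to 0.159, change 0.33 to 0.45). Kif4-ps had 8.64, 8.35, 7.63, 8.36 and 8.28 in Ing2-/- testes, against 8.85, 8.68 and 8.69 in Ing2+/+ testes. Its 2 probe sets had changes of -0.49 and -0.60, opposite in sign to that of Kif4, and neither was called. A pseudogene resembles its parent gene, and how far the probes of one bind transcripts of the other was not tested.

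Kif20a, which brings the chromosomal passenger complex to the central spindle for cytokinesis, had 9.50, 9.39, 9.00, 9.54 and 9.31 in Ing2-/- testes, against 9.79, 9.66 and 9.71 in Ing2+/+ testes. All Ing2-/- testes were lower. The change was -0.37 with all arrays (adjusted p = 0.0964) and -0.28 without replicate 3, where it was called (adjusted p = 0.0402). The 3 kinesin-13 depolymerases of this group, which shorten microtubules at spindle poles and kinetochores, were each lower in all Ing2-/- testes without being called: Kif2b had a change of -0.36, Kif2a of -0.25 and the centromeric Kif2c of -0.23 (-0.13 without replicate 3). For Kif2b the values were 11.21, 11.19, 10.75, 11.29 and 11.20 in Ing2-/- testes, against 11.61, 11.48 and 11.38 in Ing2+/+ testes. Replicate 3 was again lowest. Kif2b was called without it, at -0.26 (adjusted p = 0.0423). For Kif2a the values were 10.78, 10.64, 10.49, 10.83 and 10.72 in Ing2-/- testes, against 11.00, 10.92 and 10.89 in Ing2+/+ testes. For Kif2c they were 11.23, 11.10, 10.59, 11.14 and 11.02 in Ing2-/- testes, against 11.28, 11.24 and 11.23 in Ing2+/+ testes. In Kif2a the highest Ing2-/- testis, replicate 4, came close to the lowest Ing2+/+ testis, and in Kif2c replicate 1 nearly met the lowest Ing2+/+ testis.

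The other spindle motors overlapped between the genotypes, save Kif18b. Kif18b, which acts on astral microtubules, had 8.96, 8.83, 8.18, 9.01 and 8.69 in Ing2-/- testes, against 9.08, 9.03 and 9.07 in Ing2+/+ testes. Its change was -0.33 with all arrays (adjusted p = 0.249) and -0.19 without the low replicate 3 (adjusted p = 0.175). Its relative Kif18a, which damps chromosome movements at metaphase, had -0.13, and -0.0018 without replicate 3. Kif11, which pushes the spindle poles apart, had -0.23, and Kif15, which can take its place, -0.19, or -0.05 without replicate 3. Kif22, a chromokinesin that pushes chromosome arms away from the poles, had -0.23, and -0.14 without replicate 3. For the cytokinesis motors Kif23, a subunit of centralspindlin, Kif20b and Kif14, the changes were -0.16, -0.14 and -0.05. Without replicate 3 Kif20b had -0.07 and Kif14 changed sign to 0.0061. The second probe set of Kif14 lay below the median of probe sets without a symbol in both groups, and no change is read from it. The 7 genes printed above with TTTGAA near the start include Kif4 with the increase and 6 with measured changes of -0.33 to -0.14, or -0.20 to -0.05 without replicate 3. Replicate 3 was the farthest Ing2-/- array in 11 of the 13 spindle motors and in 9 of the 10 cilium and flagellum motors.

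**Figure D3:**
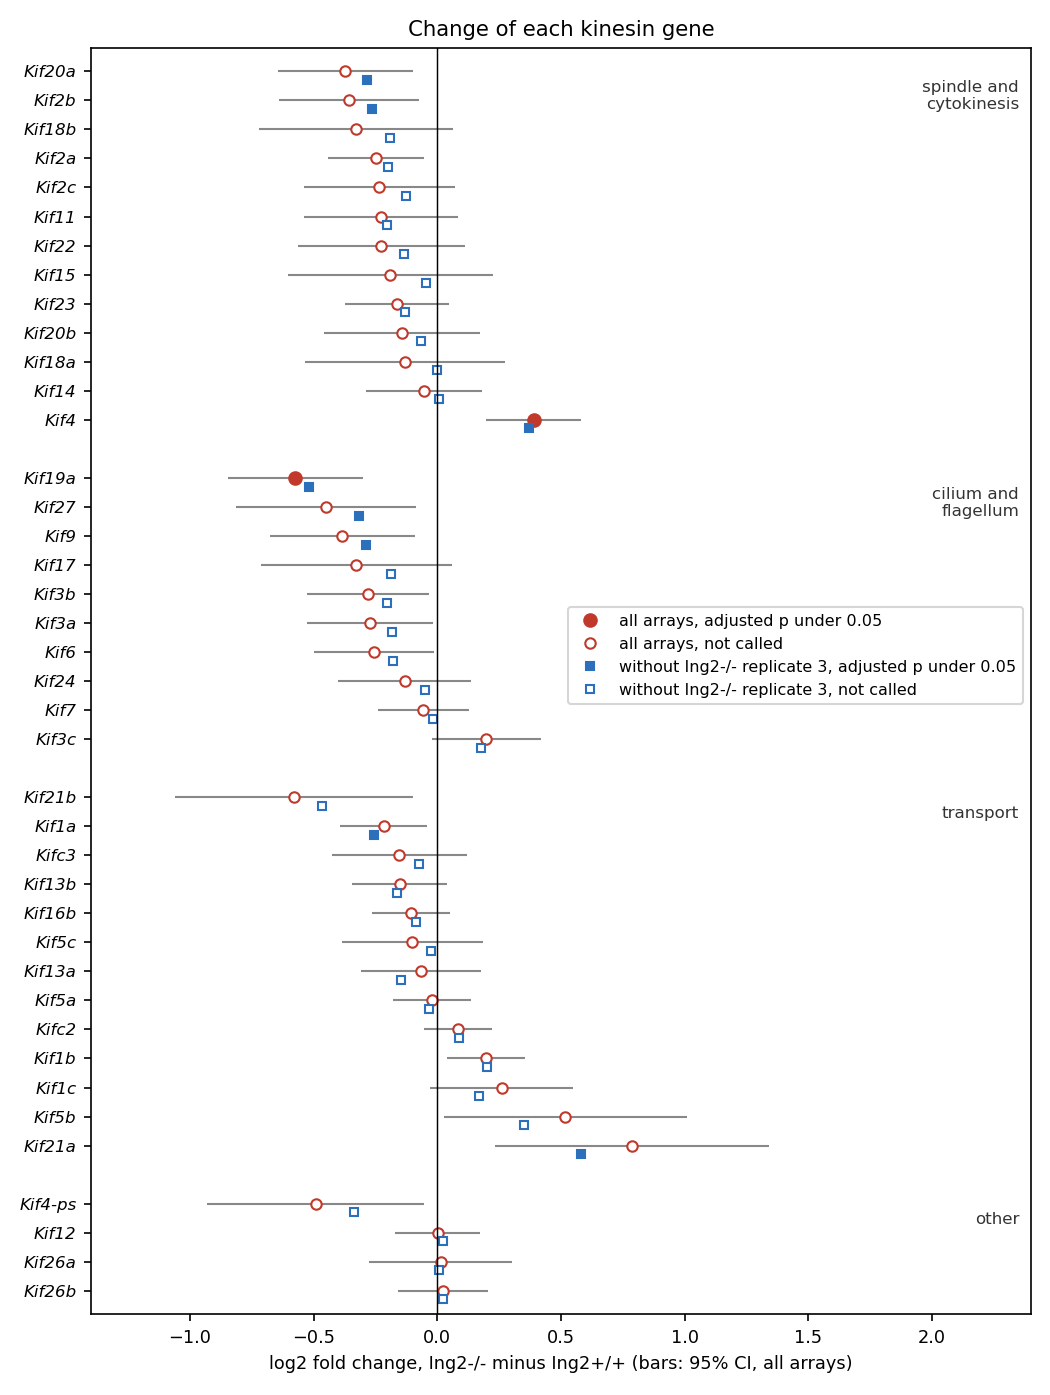
Log2 fold change of each kinesin gene, Ing2-/- minus Ing2+/+, on the horizontal axis, as red circles with 95% confidence intervals for all arrays and as blue squares without Ing2-/- replicate 3, filled where the adjusted p was under 0.05. Filled circles are Kif4 (0.39) and Kif19a (-0.57), and most squares lie nearer to 0 than their circles.

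The transport motors did not share a direction: 5 of 13 changes were above 0 and 8 below, with a median of -0.07 (-0.03 without replicate 3), and none was called with all arrays. The largest measured change among all kinesins was that of Kif21a, a relative of Kif4 that slows microtubule growth and is abundant in neurons. Its levels, printed in full after they had been seen, were 8.29, 8.21, 9.39, 8.32 and 8.59 in Ing2-/- testes, against 7.78, 7.73 and 7.81 in Ing2+/+ testes. Every Ing2-/- testis was higher, and replicate 3 was higher by more than any other. The change was 0.79 with all arrays (SE 0.245, adjusted p = 0.0881) and 0.58 without replicate 3 (adjusted p = 0.00972). The close relative of this gene, Kif21b, had a change of the opposite sign. Kif21b had 8.07, 8.12, 7.21, 7.32 and 7.63 in Ing2-/- testes, against 8.22, 8.25 and 8.28 in Ing2+/+ testes, a change of -0.58 (adjusted p = 0.123). The Ing2-/- testes spread widely here without reaching the Ing2+/+ levels, and replicates 3 and 4 were both low.

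Kif5b, the heavy chain of conventional kinesin in most tissues, had 8.63, 8.25, 9.39, 8.53 and 8.77 in Ing2-/- testes, against 8.26, 8.11 and 8.23 in Ing2+/+ testes. Replicate 2 lay within the Ing2+/+ range and replicate 3 far above it. The change was 0.52 (adjusted p = 0.162), and 0.35 without replicate 3 (adjusted p = 0.0865). With array weights Kif5b was called (adjusted p = 0.0455). The neuronal heavy chains Kif5a and Kif5c had -0.02 and -0.10, and without replicate 3 -0.03 and -0.03. Replicate 3, highest for Kif21a and Kif5b, also had the highest mean level of Sertoli markers (1.12 above the Ing2+/+ mean), and the part of that in these values was not tested.

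Within the kinesin-3 family, Kif1b, which moves mitochondria and synaptic vesicle precursors, had 8.97, 8.78, 8.84, 8.95 and 8.77 in Ing2-/- testes, against 8.68, 8.63 and 8.69 in Ing2+/+ testes. The groups did not overlap, and the change of 0.20 was not called (adjusted p = 0.114). With array weights Kif1b was called (adjusted p = 0.0452). Kif1c, which carries vesicles between Golgi and endoplasmic reticulum, had 6.76, 6.78, 7.33, 6.87 and 7.06 in Ing2-/- testes, against 6.67, 6.71 and 6.72 in Ing2+/+ testes. All Ing2-/- testes were higher, replicate 3 most, and the change was 0.26, or 0.17 without replicate 3. Its second probe set lay below the median of probe sets without a symbol in both groups, and no change is read from it. Kif1a, the axonal carrier of synaptic vesicle precursors, had 7.13, 7.22, 7.36, 7.13 and 7.15 in Ing2-/- testes, against 7.32, 7.50 and 7.43 in Ing2+/+ testes, a change of -0.22 (adjusted p = 0.117). Here replicate 3 was the one Ing2-/- testis within the Ing2+/+ range. Without replicate 3 Kif1a was called, at -0.26 (adjusted p = 0.0336). The endosome and vesicle motors Kif13a, Kif13b and Kif16b had -0.07, -0.15 and -0.11, and the C-terminal motors Kifc2 and Kifc3 had 0.08 and -0.15. Without replicate 3 Kif13a had -0.15 and Kifc3 -0.07. With all arrays these 5 motors overlapped between the genotypes.

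Of the 4 genes in no group, Kif26a and Kif26b, whose motor domains do not hydrolyse ATP, had 0.01 and 0.02. The second probe set of Kif26b had -0.04, so the measured direction of Kif26b depended on the probe set. Kif12 had 0.0015 and was the only kinesin gene below the median of probe sets without a symbol in both groups, so it is not shown to be above background. Kif4-ps is described with Kif4.

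**Figure D4:**
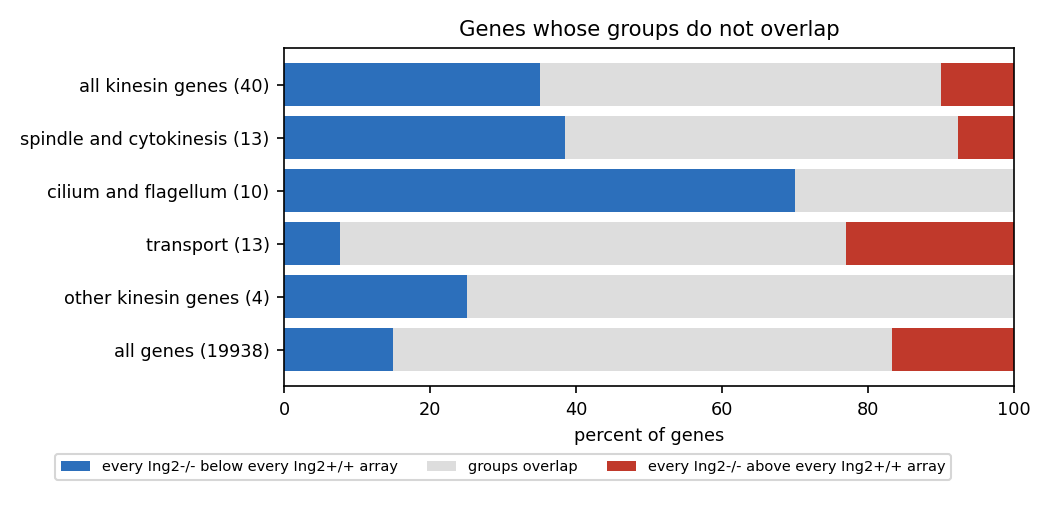
Percent of genes, on the horizontal axis from 0 to 100, in which every Ing2-/- array lay below (blue) or above (red) every Ing2+/+ array, for all kinesin genes, their groups and all genes, with the number of genes in brackets. All arrays lay below in 7 of 10 cilium and flagellum motors and in 14.9% of all genes.

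Proteins that work with kinesins were counted from lists chosen by function. Of 18 subunits, binding proteins and cargo adaptors 16 were measured, with 10 changes below 0, 6 above and a median of -0.15 (-0.06 without replicate 3). With all arrays 2 were called lower and 0 higher, beside 3.01% lower and 1.97% higher of all genes. Without replicate 3, 4 were called lower and 0 higher, beside 7.76% and 8.72% of all genes. Plekhm2, which joins lysosomes to kinesin-1, had 8.44, 8.39, 8.02, 8.40 and 8.16 in Ing2-/- testes, against 8.82, 8.87 and 8.99 in Ing2+/+ testes, and fell by 0.61 on the log2 scale (SE 0.109, adjusted p = 0.0240). Kifbp, which binds kinesin motor domains and keeps them off the microtubule, had 9.63, 9.60, 9.56, 9.79 and 9.55 in Ing2-/- testes, against 9.97, 9.92 and 9.94 in Ing2+/+ testes, and fell by 0.31 (SE 0.0714, adjusted p = 0.0460). Neither gene overlapped between the genotypes. Both calls were lost without Ing2-/- replicate 5 or any one Ing2+/+ array, and that of Kifbp also without Ing2-/- replicate 1 or 2 and with an intensity trend and robust estimation (adjusted p = 0.0554). Fhl5, the cargo of Kif17, named after its values had been seen, had 9.80, 9.75, 8.98, 9.88 and 9.67 in Ing2-/- testes, against 10.09, 10.13 and 10.11 in Ing2+/+ testes, a change of -0.50 that was not called with all arrays (adjusted p = 0.130) and of -0.34 that was called without replicate 3 (adjusted p = 0.0157). The fourth call without replicate 3, also named after its values had been seen, was Mapk8ip2, a scaffold that links JNK kinases to kinesin-1, with -0.41 (adjusted p = 0.0337). Its low array was replicate 3, as for Kif17.

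None of 18 spindle and cytokinesis proteins was called by limma with all arrays, and 4 had an unadjusted p under 0.05, 2 higher and 2 lower, beside 16.5% higher and 13.5% lower of all genes. Their median was -0.11 with all arrays and -0.0008 without replicate 3. The smallest p-values were those of the mitotic kinase Plk1, with a change of -0.51 (adjusted p = 0.0710), and of Numa1, which anchors dynein at spindle poles, with 0.28 (adjusted p = 0.109). Plk1 was called without replicate 3, at -0.42 (adjusted p = 0.0335), with cyclic loess (adjusted p = 0.0486) and with array weights (adjusted p = 0.0216), and Numa1 with array weights (adjusted p = 0.0447). Of 20 subunits of cytoplasmic dynein and dynactin 18 were measured, with a median of -0.03 (-0.0068 without replicate 3). One was called with all arrays, beside 4.98% of all genes: Dctn6, a subunit of the pointed end of dynactin, had 9.20, 9.11, 8.58, 9.19 and 8.55 in Ing2-/- testes, against 9.73, 9.70 and 9.78 in Ing2+/+ testes, and fell by 0.81 (SE 0.171, adjusted p = 0.0383). Replicates 3 and 5 were lowest. That call was lost without Ing2-/- replicate 2 or 5 or any one Ing2+/+ array. Without replicate 3 it was kept, and 2 genes were called higher, beside 7.76% lower and 8.72% higher of all genes. Named after their values had been seen, the 2 were the dynein light chain Dynlrb1, at 0.44 (adjusted p = 0.00595), and the light intermediate chain Dync1li1, at 0.27 (adjusted p = 0.0317).

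The other marker lists are given as mean levels against the Ing2+/+ mean. Pachytene spermatocyte markers (10 genes) lay at -0.65 to -0.15 in Ing2-/- testes and -0.01 to 0.01 in Ing2+/+ testes. Elongating spermatid markers (12 genes) lay at -0.54 to -0.07 in Ing2-/- and -0.04 to 0.04 in Ing2+/+ testes. Leydig cell markers (7 genes) lay at 0.32 to 1.21 in Ing2-/- and -0.04 to 0.03 in Ing2+/+ testes. Macrophage markers (8 genes) lay at 0.15 to 0.70 in Ing2-/- and -0.03 to 0.03 in Ing2+/+ testes. Peritubular myoid markers (7 genes) lay at 0.05 to 0.46 in Ing2-/- and -0.06 to 0.03 in Ing2+/+ testes. Of their changes 6 were above 0, the largest 0.49, and 1 was below, at -0.48. Endothelial markers (7 genes) lay at 0.10 to 0.26 in Ing2-/- and -0.03 to 0.05 in Ing2+/+ testes, with 6 changes above 0 and 1 below. Spermatogonial markers (12 genes) lay at 0.02 to 0.30 in Ing2-/- and -0.01 to 0.02 in Ing2+/+ testes. Of their 12 changes 10 were above 0 and 2 below. With all arrays 0 of them were called higher and 1 lower, beside 1.97% and 3.01% of all genes. The ranges overlapped for meiotic prophase markers (10 genes), at -0.42 to -0.0040 in Ing2-/- and -0.05 to 0.09 in Ing2+/+ testes. The part of these shifts in the kinesin values was not tested.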

How the data were processed

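The authors normalised the arrays by RMA in Affymetrix Expression Console (version not given in the sources used) and deposited log2 levels, 1 per probe set, annotated with NetAffx release 28. A level is thus relative to all transcripts of that testis. Symbols came from the platform annotation (21789 probe sets with 1 symbol, 1621 with several, 12147 with none) and were updated through gene identifiers with a GRCm38.p6 gene table for 21698. All 40 kinesin genes matched. Every column of values was used.

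Genotypes were compared, two-sided and without covariates, by lmFit and eBayes of limma 3.58.1 (R 4.3.3). P-values were adjusted by the Benjamini-Hochberg method across the 35557 probe sets. The authors' test used a random variance model, which was run as an alternative. The number of arrays limits the precision. Figures were drawn with matplotlib 3.10.9.

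The members and the gene lists were chosen with earlier results of these data known. Levels in every array were to be given for called kinesins, Kif17, Kif3a, Kif9, Kifc1 and Kifc5b, and fold changes for all others. Kifc1 and Kifc5b share a probe set, and their levels are not given. From each partner list, called genes or the 2 with the smallest p were named. Other genes given in full were chosen after their values had been seen.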

Additional observations from a re-analysis of the deposited data

Results flagged for a closer look

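In 5 of the 46 genes tested for it, all of them kinesins, 1 Ing2-/- array lay far from the other 4 by Dixon's criterion, which was met by 10.7% of all genes and which chance meets in about 1 of 20. Of these, 4 concern Ing2-/- replicate 3. Kif3a stood at 8.87 there, against a nearest other Ing2-/- level of 9.29. Kif2b stood at 10.75, with the nearest at 11.19, and Kif17 at 9.45, with the nearest at 10.02. Kif13a was the one case on the high side, at 6.63 with the nearest at 6.27. Kif26b was low in Ing2-/- replicate 1, at 5.81 with the nearest at 5.87, a gap smaller than the spread of its Ing2+/+ levels. The cause was not tested.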

How the results depend on the processing

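The 2 called kinesin genes became 0 with the replicate number as a block (13 at an unadjusted p under 0.05; all genes 0 and 4513) and 0 to 8 when each array was left out, the 8 without Ing2-/- replicate 3. In that fit 16.5% of all genes were called. There were 1 among probe sets above the median level (Kif4 was not among those tested) and 10 with array weights, beside 11.6% and 20.6% of all genes. At an unadjusted p under 0.001 there were 0. Deviations of same-numbered arrays correlated at -0.0574, 0.184 and 0.00577, and those of arrays with unlike numbers at -0.113 to 0.144. So few values cannot decide whether the numbers pair the mice. The 3 called partner genes became 8 without Ing2-/- replicate 3, 0 to 3 without any other one array, 11 with array weights, 1 at an unadjusted p under 0.001 and 0 with the block. The partner lists had 16, 18 and 18 measured genes, and the shares of all genes are those given above. The block left no called gene, and Ing2 had -2.15 (adjusted p = 0.0612). Ing2-/- replicates 4 and 5 have no Ing2+/+ array of the same number, so that fit takes no genotype change from them. It thus rests on fewer arrays, and its lost calls cannot be read as an effect of pairing the mice. The 992 genes called in all became 40 to 3286 when each array was left out, 1646 with only probe sets of 1 symbol, 4107 with array weights, 1614 with the mean of all probe sets and 548 at an unadjusted p under 0.001. Of the calls 39.5% were higher, against 24.2% with cyclic loess, 54.9% with array weights and 10.0% (without Ing2+/+ replicate 2) to 52.9% (without Ing2-/- replicate 3). With cyclic loess Kif1a took the place of Kif4 (0.34, adjusted p = 0.0646).

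Of 635 alternative values of kinesin genes 20 had the other sign, in 6 genes whose changes lay near 0. When each array was left out, Kif12 ranged between -0.039 and 0.052, Kif14 between -0.11 and 0.0061, Kif26a between -0.068 and 0.10, Kif26b between -0.062 and 0.10 and Kif5a between -0.070 and 0.037. With cyclic loess Kif12 had -0.026, Kif26a -0.058 and Kif26b -0.021. With array weights Kif12 had -0.0093, Kif14 0.020 and Kif26a -0.021. Kif26a had -0.047 with the block, and with the mean of probe sets Kif26b had -0.0099 and Kif7 0.033. The cause was not tested.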
